A study of Homo sapiens with 6 samples.

Results

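The genes of cholesterol and fatty acid synthesis were followed in RT4, RT112 and SW780 cells, 3 human bladder cancer cell lines, with and without quisinostat, an inhibitor of histone deacetylases. The members are 43 genes chosen by symbol: the SREBP transcription factors and their escort proteins, the enzymes from acetyl-CoA to cholesterol, the enzymes that make, elongate and desaturate fatty acids, and genes of sterol transfer, export and storage. The deposited table carries 9597 gene names at 10066 assembled loci, and 41 of the 43 symbols are among them. The cholesterol efflux transporters ABCA1 and ABCG1 are not listed in the table and have no value here.

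Per the labels, RT4 and RT112 carry an FGFR3-TACC3 fusion, and SW780 carries a fusion written FGFR3-BAIBP2L1. Cells received DMSO or quisinostat for 2 days, at 50 nM for RT4, 10 nM for RT112 and 25 nM for SW780. RT4 was kept in McCoy's 5A medium, SW780 in DMEM, and RT112 in DMEM with added L-glutamine and non-essential amino acids, all with serum. There was 1 library for each line and treatment, 6 in all, so that line, dose and medium cannot be told apart. The quisinostat library of SW780 is named SW780 in its title and SW781 in its cell line label.

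Cholesterol is built from acetyl-CoA through mevalonate, the isoprenoids and squalene, while fatty acids are built from acetyl-CoA through malonyl-CoA. Both routes are driven by the SREBP transcription factors, which are made as membrane proteins of the endoplasmic reticulum, carried to the Golgi by SCAP when sterols are scarce, and held back by the INSIG proteins when sterols are plentiful. SREBP-2, from SREBF2, acts mainly on the sterol genes, and SREBP-1, from SREBF1, mainly on the fatty acid genes. Dividing tumour cells use both routes to make membranes.

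Values are FPKM, fragments scaled to transcript length and library size, so that levels of different genes can be set side by side per length. This scaling does not account for GC content, which the ratios followed, as described below. The summed FPKM of the 41 members lay between 978 and 1777 in the 6 libraries, or 0.412% to 0.691% of the FPKM of all loci. The depth of the libraries is unknown, since the table holds no read counts. All 18 urothelial and epithelial markers examined were in the table, with summed FPKM from 1008 to 2500. The sum was lower with quisinostat in RT4 and SW780 and higher in RT112, but single markers did not all follow it. KRT20, EPCAM and CDH1 were higher with quisinostat in RT4 and SW780, and KRT20, EPCAM and FOXA1 were lower in RT112. The part of these markers in the results was not tested. Of 6 fibroblast and muscle markers, only COL1A1 and COL3A1 were listed, with summed FPKM from 0.263 to 6.66, and none of 5 immune, 3 endothelial and 3 hepatocyte markers was listed. In whole cultures, fewer cells of a kind and less RNA per cell cannot be told apart.

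In RT4 and SW780 cells the SREBP genes, FASN, SCD and several sterol enzymes were lower with quisinostat, and in RT112 cells fewer members were. The response of a gene is given as the log2 ratio of its FPKM with quisinostat over that with DMSO in the same line, and a ratio below -0.3, the limit the study set for lower genes, is counted as lower and one above 0.3 as higher. In RT4, 20 of the 41 members were lower, beside 33.5% of 9112 loci, and 13 were higher, beside 40.3%. In SW780, 20 were lower, beside 28.2% of loci, and 9 were higher, beside 32.8%. In RT112, 7 were lower, beside 25.2%, and 11 were higher, beside 36%.

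Triplets of values are given below in the order RT4, RT112 and SW780. The members had median log2 ratios of -0.24, -0.02 and -0.29, and all loci had medians of 0.08, 0.06 and 0.04. In both RT4 and SW780, 16 members were lower, beside 17.9% of loci, and 8 were higher, beside 23%. Lower in all 3 lines were ACAT2, FDFT1, ACACA and SCD, 4 of 41 members beside 4.99% of loci. Higher in all 3 lines were ELOVL5, FADS3, NPC1 and NPC2, again 4 of 41, beside 11.4% of loci. HMGCS1, FDPS, CYP51A1 and NSDHL stayed within 0.3 of 0 in every line, 4 members beside 7.12% of loci. After a correction for GC content, described below, 4 members were again within 0.3, beside 11.7% of loci, and of these NSDHL alone was shared, with HMGCS1 (-0.48) and CYP51A1 (-0.31) lower in RT4 and FDPS (-0.31) lower in RT112. With 1 library per line and treatment these counts have no replicate check.

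**Figure D1:**
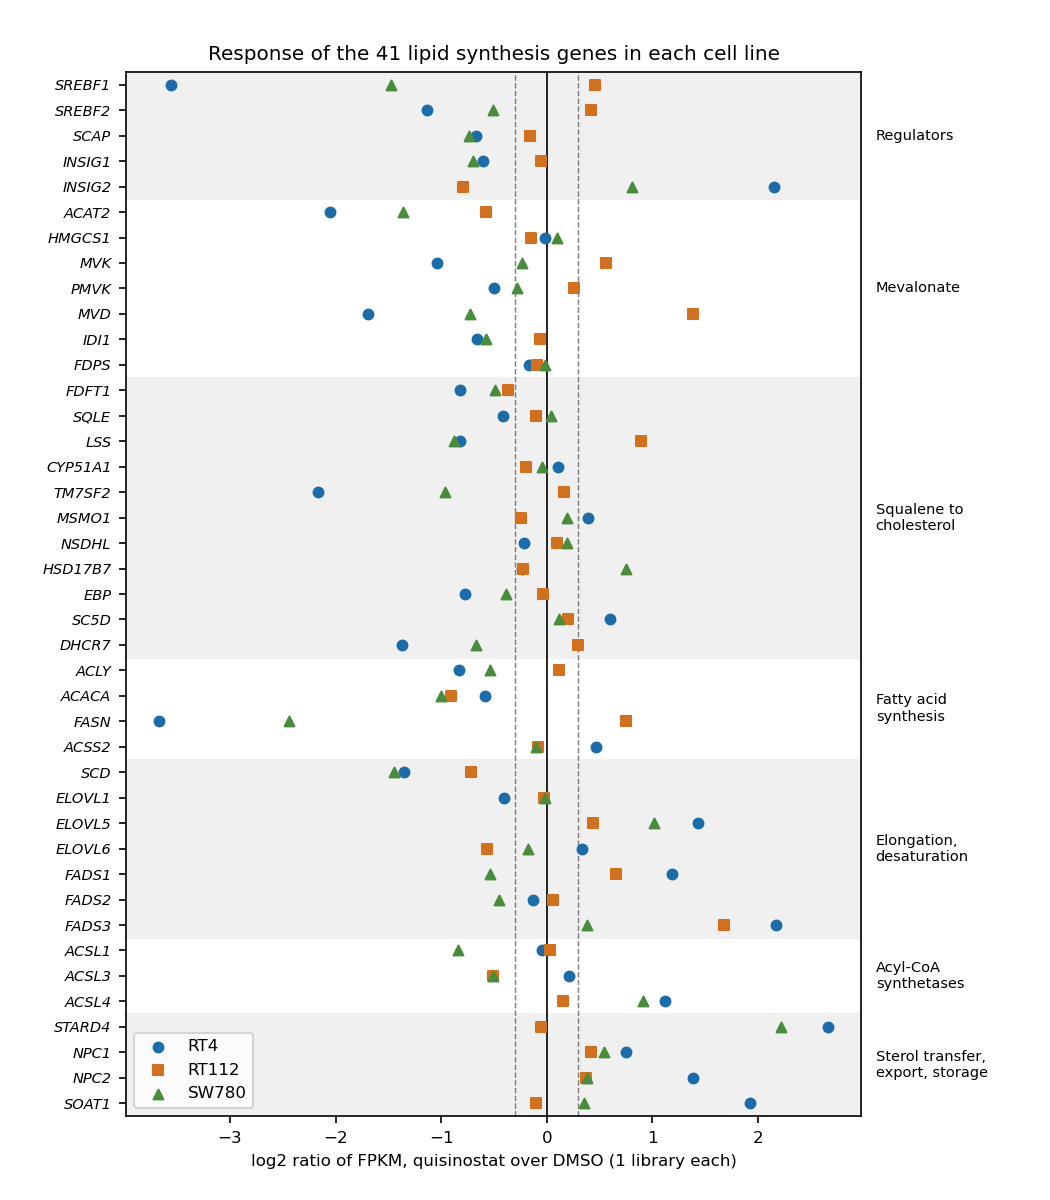
Each point is the log2 ratio of FPKM, quisinostat over DMSO, of 1 member in 1 cell line (horizontal axis), with the members grouped by role down the vertical axis and dashed lines at -0.3 and 0.3. RT4 and SW780 points lie mostly left of 0 among regulators and synthesis enzymes, where 16 members are lower in both lines. The 4 listed genes of sterol transfer, export and storage lie right of 0.3 in these lines. After the GC correction, not drawn here, 2 of these 4 are above 0.3 in SW780.

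When the lines were used as replicates, no member passed the test. In limma on log2(FPKM + 1) with cell line as a block and Benjamini-Hochberg adjustment, 0 of 41 members and 0 of 9430 loci had an adjusted p under 0.05, and the lowest adjusted p of a member was 0.233, for SCD. At an unadjusted p under 0.05, 4 members were lower (ACAT2, FDFT1, ACACA and SCD), beside 4.16% of loci, and 5 were higher (ELOVL5, FADS3, ACSL4, NPC1 and NPC2), beside 9.68%. The fit has 2 residual degrees of freedom, and an exact two-sided sign-flip permutation test over 3 pairs cannot give a p below 0.25 for a single gene. The p-values measure the spread between lines that also differ in dose, so the text below gives values and not calls of change for quisinostat.

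Among the 5 regulators, SREBF1, SREBF2, SCAP and INSIG1 were lower in RT4 and in SW780, and none of them was lower in RT112. INSIG2 was higher in RT4 and SW780 and lower in RT112. The 5 ratios had medians of -0.67, -0.06 and -0.70. After the GC correction 3 of the 5 were lower in RT112, SREBF1 (-0.48), SCAP (-0.90) and INSIG2 (-0.62), beside 24.7% of loci. SCAP was then higher in RT4 (0.32), and the corrected medians were -0.58, -0.48 and -0.45. In GENCODE 29 on GRCh38, SREBF1 lies at chr17:17810399-17837002 on the minus strand and SREBF2 at chr22:41833079-41907308 on the plus strand. Their promoters are shown because both genes were lower in RT4 and SW780 and, before the GC correction, higher in RT112. The 1 window searched for each gene also differs in the letters that SREBP itself is known to read. Elements outside these windows would not be seen.

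The sequences are the 250 bases before the RefSeq start in GRCh38.p14, 5′ to 3′ on the strand of the gene, chr22:41832855-41833104 on the plus strand for SREBF2 and chr17:17836987-17837236 on the minus strand for SREBF1. Capitals mark the core of a sterol regulatory element, searched as TCACNCCAC, and the CCAAT box that NF-Y binds, each on both strands, so that CCAAT on the other strand reads ATTGG.
SREBF2: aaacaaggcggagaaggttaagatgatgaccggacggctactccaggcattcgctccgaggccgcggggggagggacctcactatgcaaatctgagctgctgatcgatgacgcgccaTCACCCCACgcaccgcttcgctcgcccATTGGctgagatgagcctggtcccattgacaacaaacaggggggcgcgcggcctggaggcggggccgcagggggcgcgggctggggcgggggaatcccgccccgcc
SREBF1: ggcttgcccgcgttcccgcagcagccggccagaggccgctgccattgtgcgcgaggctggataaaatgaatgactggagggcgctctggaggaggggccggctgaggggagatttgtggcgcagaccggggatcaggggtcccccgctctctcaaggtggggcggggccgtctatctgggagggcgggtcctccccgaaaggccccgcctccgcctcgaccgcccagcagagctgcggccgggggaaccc
In SREBF2 the element began 133 bases before the start and the CCAAT box 106 bases before it, and the 2 motifs did not overlap. In the SREBF1 window neither was found.

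The same search was made in the RefSeq windows of all genes, from 250 bases before to 50 bases after the start. Of the 43 members, 38 had an entry, and ACAT2, FDFT1, SQLE, FASN and ABCG1 had none. The sterol element core was found in 2 of the 38 genes, SREBF2 and ACSL1 (5.26%), beside 1.39% of 27305 genes. CCAAT was found in 28 (73.7%), beside 39.7%, and GGGCGG, the GC box that SP1 binds, in 36 (94.7%), beside 48.3%. These are matches of letters, counted once per gene where a gene has several windows. The 27305 genes were not limited to the 9597 names with FPKM values here. The 38 members had 54 windows and all genes 35116, and a match in any window counted. By window, CCAAT was in 32 of 54, beside 34.6%, and GGGCGG in 46, beside 45%. The sterol element core was in 2 of 54 windows, beside 1.13%.

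SREBF1 measured 9.43 FPKM with DMSO and 0.802 with quisinostat in RT4, 18.1 and 24.9 in RT112, and 6.405 and 2.30 in SW780. RT112 was above the other lines in both treatments, and the quisinostat library of RT4 was the lowest of the 6. The log2 ratios were -3.56, 0.46 and -1.48, an 11.8-fold lower level in RT4, a 1.38-fold higher level in RT112 and a 2.78-fold lower level in SW780. Across the lines limma gave -1.09 (standard error 0.55, adjusted p = 0.421, Benjamini-Hochberg).

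SREBF2 measured 29.02 and 13.3 FPKM in RT4, 31.7 and 42.4 in RT112, and 12.3 and 8.66 in SW780, DMSO first. Its log2 ratios of -1.13, 0.42 and -0.51 had the signs of those of SREBF1, with a narrower spread. SCAP, the escort of the SREBPs, measured 10.2 and 6.39 FPKM in RT4, 3.65 and 3.28 in RT112, and 2.92 and 1.75 in SW780. RT4 held the highest SCAP level under each treatment, and the log2 ratios were -0.67, -0.15 and -0.74.

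INSIG1, which retains SCAP in the endoplasmic reticulum and is itself a target of SREBP, measured 18.2 and 12.03 FPKM in RT4, 28.96 and 27.8 in RT112, and 7.67 and 4.72 in SW780. The 3 lines did not overlap in INSIG1 level, and the log2 ratios were -0.60, -0.06 and -0.70. INSIG2, its paralog, measured 1.98 and 8.83 FPKM in RT4, 13.0 and 7.52 in RT112, and 4.89 and 8.57 in SW780. With DMSO the lines ranged over 6.57-fold for INSIG2, and with quisinostat they lay between 7.52 and 8.83 FPKM. The log2 ratios of INSIG2 were 2.15, -0.79 and 0.81, so that RT112 was opposite to the other lines.

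**Figure D2:**
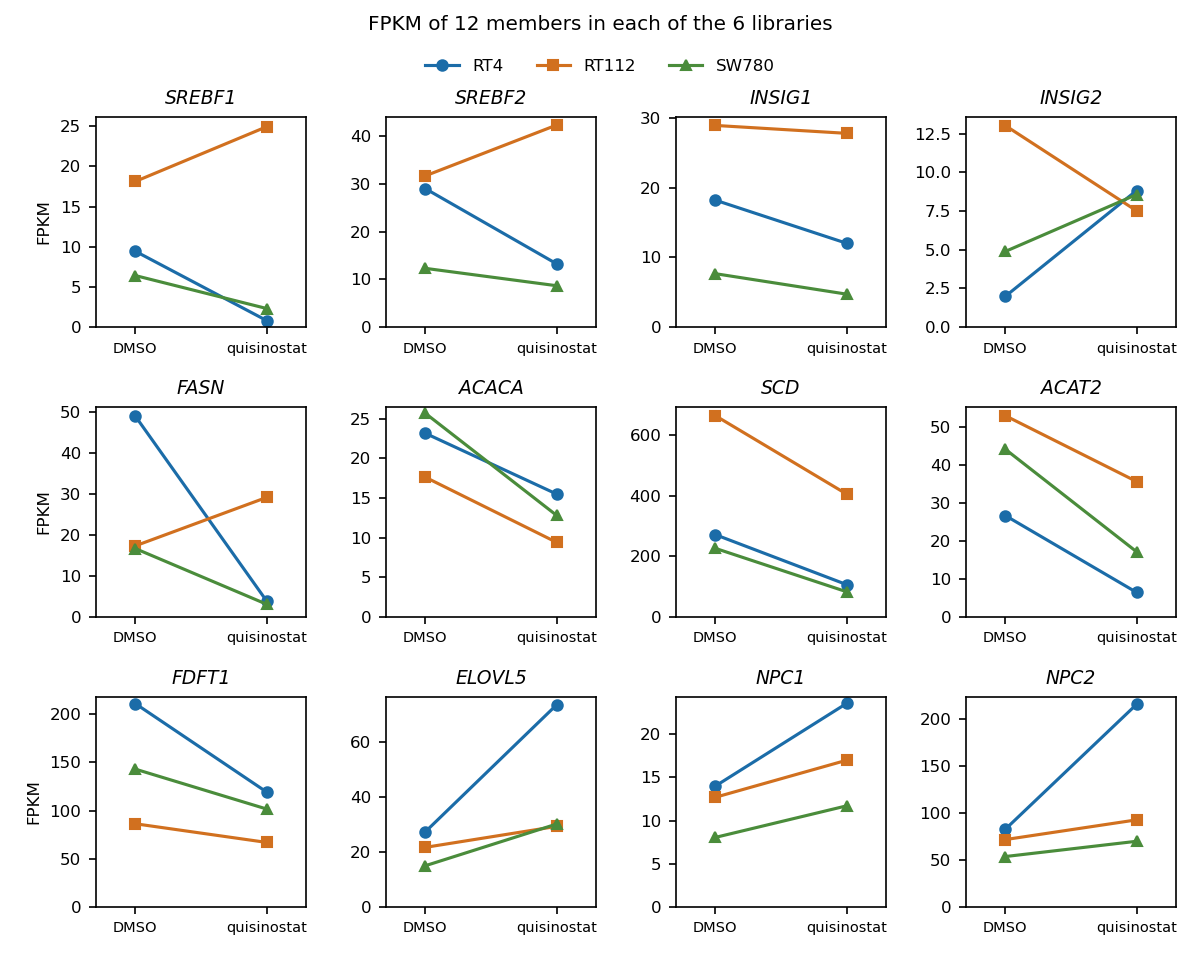
Lines join the FPKM of 1 gene with DMSO and with quisinostat (vertical axes from 0, 1 library per point) in RT4, RT112 and SW780, for 12 members. SREBF1, SREBF2 and FASN slope up in RT112 alone, SCD, ACAT2, ACACA and FDFT1 slope down in all 3 lines, and INSIG2 converges to between 7.52 and 8.83 FPKM.

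The mevalonate pathway leads from acetyl-CoA to farnesyl diphosphate. Of its 7 enzymes, 5 were lower in RT4 (33.5% of loci), 3 in SW780 (28.2%) and 1 in RT112 (25.2%). None was higher in RT4 (40.3%) or SW780 (32.8%), and 2 were higher in RT112 (36%). The pathway had median ratios of -0.66, -0.06 and -0.29. ACAT2, the cytosolic thiolase that joins acetyl-CoA units, lies at chr6:159760328-159779055 on the plus strand. It measured 26.7 and 6.45 FPKM in RT4, 53.0 and 35.7 in RT112, and 44.2 and 17.2 in SW780, so that within each line the quisinostat library was the lower. The log2 ratios were -2.05, -0.57 and -1.36, and in limma the difference was -1.26 (standard error 0.29, adjusted p = 0.257, Benjamini-Hochberg).

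HMGCS1, the next enzyme, measured 51.3 and 50.6 FPKM in RT4, 43.8 and 39.6 in RT112, and 23.4 and 25.0 in SW780, with log2 ratios of -0.02, -0.15 and 0.09. Its levels differed more between the lines than with treatment. MVK and PMVK, the kinases of mevalonate and phosphomevalonate, had ratios of -1.04, 0.56 and -0.23 and of -0.50, 0.26 and -0.29, respectively. MVD, which makes isopentenyl diphosphate, measured 5.55 and 1.71 FPKM in RT4, 3.29 and 8.58 in RT112, and 2.49 and 1.51 in SW780. MVD was the lowest-expressed gene of this pathway in every DMSO library. Its ratios of -1.70, 1.38 and -0.72 were among the widest-spread of the members, with RT112 opposite to the other lines.

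IDI1, the isomerase, had ratios of -0.66, -0.06 and -0.58, and FDPS, which makes farnesyl diphosphate, -0.17, -0.09 and -0.02. Within the pathway, HMGCS1 stayed near its DMSO level in the libraries where ACAT2 stood 4.14-fold and 2.57-fold lower, RT4 and SW780, although after the GC correction its ratio in RT4 was -0.48 against -0.04 in SW780.

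The 11 enzymes from squalene to cholesterol had median ratios of -0.41, -0.04 and -0.04. RT4 had 6 lower (33.5% of loci) and 2 higher (40.3%). For RT112 the counts were 1 lower (25.2%) and 1 higher (36%), and for SW780 they were 5 (28.2%) and 1 (32.8%). After the GC correction RT4 had 7 lower (33.4%) and 0 higher (35.7%), and RT112 had 2 (24.7%) and 2 (28.1%). SW780 kept 5 lower (28.7%) and 1 higher (30.5%). FDFT1, squalene synthase, lies on chromosome 8 and commits farnesyl diphosphate to sterols. It measured 211 and 119 FPKM in RT4, 86.3 and 66.9 in RT112, and 143 and 102 in SW780, the lower value with quisinostat each time. The log2 ratios were -0.82, -0.37 and -0.49, and limma gave -0.56 (standard error 0.18, adjusted p = 0.317, Benjamini-Hochberg). SQLE, squalene epoxidase, measured 48.9 and 36.8 FPKM in RT4, 70.8 and 66.1 in RT112, and 33.0 and 33.9 in SW780, with ratios of -0.41, -0.10 and 0.04.

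LSS, which closes squalene epoxide into lanosterol, had ratios of -0.82, 0.89 and -0.87, from 20.0 to 37.1 FPKM in RT112. TM7SF2, a sterol reductase, had ratios of -2.17, 0.16 and -0.96, but its locus is shared with VPS51 and the values cannot be told apart. DHCR7, the last reductase of the route, had -1.37, 0.30 and -0.67, and EBP, the sterol isomerase, -0.78, -0.04 and -0.39. The demethylation enzymes CYP51A1 (0.10, -0.19 and -0.04), MSMO1 (0.39, -0.24 and 0.19), NSDHL (-0.22, 0.10 and 0.19) and HSD17B7 (-0.24, -0.22 and 0.75) did not share a direction. SC5D, the sterol desaturase, was higher in RT4 alone before the GC correction, at 0.60, with 0.21 in RT112 and 0.11 in SW780. After the correction its ratios were 0.09, 0.38 and -0.05, past 0.3 in RT112 and not in RT4.

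Of the 4 genes that supply acetyl-CoA and build fatty acids, FASN showed the widest spread of ratios of all members. FASN, the fatty acid synthase, lies at chr17:82078333-82098332 on the minus strand and measured 48.9 and 3.85 FPKM in RT4, 17.3 and 29.1 in RT112, and 16.6 and 3.07 in SW780. RT4 held the most FASN with DMSO, and RT112 held the most with quisinostat. The log2 ratios of -3.67, 0.75 and -2.44 correspond to a 12.7-fold lower level in RT4, a 1.68-fold higher level in RT112 and a 5.41-fold lower level in SW780. In limma the difference was -1.59 (standard error 0.74, adjusted p = 0.401, Benjamini-Hochberg).

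ACACA, the carboxylase that makes malonyl-CoA for FASN, was lower in all 3 lines. It measured 23.1 and 15.5 FPKM in RT4, 17.6 and 9.39 in RT112, and 25.7 and 12.8 in SW780, and all 3 quisinostat values lay below all 3 DMSO values. Its log2 ratios were -0.58, -0.91 and -1.005, with a limma difference of -0.78 (standard error 0.19, adjusted p = 0.278, Benjamini-Hochberg). ACLY, the citrate lyase that supplies cytosolic acetyl-CoA, had ratios of -0.83, 0.12 and -0.54. ACSS2, which makes acetyl-CoA from acetate, had 0.46, -0.08 and -0.10.

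Among the 7 elongases and desaturases the directions split by enzyme. SCD, the desaturase that makes oleate and palmitoleate, and ELOVL5, which elongates polyunsaturated fatty acids, kept opposite signs in every line, so their promoters are set side by side. The windows are chr10:100346983-100347232 on the plus strand for SCD and chr6:53348951-53349200 on the minus strand for ELOVL5, as above, with CCAAT or ATTGG in capitals.
SCD: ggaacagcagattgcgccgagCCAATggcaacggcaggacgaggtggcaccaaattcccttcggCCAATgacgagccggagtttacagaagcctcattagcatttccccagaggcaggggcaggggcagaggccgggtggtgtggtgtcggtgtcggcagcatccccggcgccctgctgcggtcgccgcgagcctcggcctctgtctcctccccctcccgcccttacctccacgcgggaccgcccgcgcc
ELOVL5: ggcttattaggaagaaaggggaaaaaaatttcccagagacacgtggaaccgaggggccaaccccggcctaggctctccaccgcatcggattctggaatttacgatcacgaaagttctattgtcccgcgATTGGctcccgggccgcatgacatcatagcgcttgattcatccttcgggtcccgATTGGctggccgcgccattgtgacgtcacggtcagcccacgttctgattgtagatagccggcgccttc
Each window held 2 CCAAT boxes, at 229 and 186 bases before the start in SCD and at 122 and 68 in ELOVL5, and neither held the sterol element core. SCD had 2 GC boxes before its start and ELOVL5 had 0. Both genes held the CCAAT box, as did 73.7% of the 38 members with an entry, and its part in the direction was not tested.

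SCD measured 272 and 107 FPKM in RT4, 665 and 406 in RT112, and 226.5 and 83.02 in SW780, and lies at chr10:100347124-100364834. It had the highest FPKM of all members in each DMSO library, and both RT112 libraries stood above all others. The log2 ratios were -1.35, -0.71 and -1.45, the same sign in 3 of 3 lines, and limma gave -1.16 (standard error 0.21, adjusted p = 0.233, Benjamini-Hochberg). SCD made up 17.3%, 37.4% and 17.9% of the summed FPKM of the members with DMSO in RT4, RT112 and SW780, and 8.15%, 26.3% and 8.49% with quisinostat.

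ELOVL5 measured 27.3 and 73.5 FPKM in RT4, 21.6 and 29.2 in RT112, and 14.9 and 30.1 in SW780, and every quisinostat value lay above every DMSO value. Its log2 ratios were 1.43, 0.44 and 1.012, with a limma difference of 0.93 (standard error 0.24, adjusted p = 0.281, Benjamini-Hochberg). FADS3, a desaturase paralog, measured 1.99 and 8.96 FPKM in RT4, 0.421 and 1.34 in RT112, and 3.54 and 4.62 in SW780, with ratios of 2.17, 1.68 and 0.38. It was the lowest of the members in the DMSO library of RT112. FADS1, the delta-5 desaturase, measured 11.4 and 25.9 FPKM in RT4, 7.95 and 12.5 in RT112, and 66.7 and 45.9 in SW780. With ratios of 1.18, 0.65 and -0.54, FADS1 was the member in which SW780 was opposite to the other lines.

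FADS2, the delta-6 desaturase, had ratios of -0.13, 0.06 and -0.46 at a locus shared with FEN1, whose values are the same. After the GC correction the FADS2 ratios were 0.70, -0.56 and -0.22, higher in RT4 and lower in RT112. FADS1, FADS2 and FADS3 are neighbours on chromosome 11 and did not share a direction in SW780. ELOVL1, which elongates saturated chains, had ratios of -0.40, -0.02 and -0.01, and ELOVL6, which takes the product of FASN from palmitate to stearate, 0.34, -0.57 and -0.18. Of the long-chain acyl-CoA synthetases, which activate fatty acids, ACSL1 had -0.05, 0.03 and -0.84, ACSL3 0.21, -0.51 and -0.51, and ACSL4, which prefers arachidonate, 1.12, 0.16 and 0.92.

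The 4 listed genes of sterol transfer, export and storage were higher in RT4 and SW780, beside 40.3% and 32.8% of loci, with medians of 1.66 and 0.46. In RT112, 2 of the 4 were higher, beside 36%, with a median of 0.16. After the GC correction 4 were higher in RT4 (35.7% of loci), 2 in RT112 (28.1%) and 2 in SW780 (30.5%). The corrected ratios in SW780 were 0.29 for NPC2 and 0.21 for SOAT1. NPC2 and NPC1 pass cholesterol out of the late endosome and lysosome. NPC1 measured 13.996 and 23.6 FPKM in RT4, 12.7 and 17.0 in RT112, and 8.04 and 11.7 in SW780, with ratios of 0.75, 0.42 and 0.54. NPC2 measured 82.6 and 216 FPKM in RT4, 71.7 and 92.7 in RT112, and 53.6 and 69.8 in SW780, with ratios of 1.39, 0.37 and 0.38. Within each line both genes were higher with quisinostat, while the DMSO and quisinostat values of different lines overlapped. NPC2 shares its locus with MIR4709.

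In limma, with Benjamini-Hochberg adjustment, NPC1 differed by 0.53 (standard error 0.19, adjusted p = 0.336) and NPC2 by 0.71 (standard error 0.25, adjusted p = 0.337). STARD4, which carries cholesterol between membranes, was the lowest-expressed member with DMSO in RT4 and SW780, at 0.509 and 0.524 FPKM, and stood at 3.21 and 2.43 with quisinostat. In RT112 it was at 0.766 and 0.739, and the log2 ratios were 2.66, -0.05 and 2.22. SOAT1, which esterifies cholesterol for storage, had ratios of 1.92, -0.11 and 0.35.

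With DMSO, each line held the highest level of some members. Of the 41 members, 16 were highest in RT4, 15 in RT112 and 10 in SW780, beside 36.2%, 29.4% and 34.4% of loci. SCD led in each line, followed by FDFT1 and ACLY in RT4, by FDPS and FDFT1 in RT112, and by FDFT1 and FDPS in SW780. By at least 1 on the log2 scale, 6 members were higher in RT4 than in RT112, beside 17.5% of loci, and 2 were higher in RT112 than in RT4, beside 15.2%. Against SW780, 6 were higher in RT4, beside 15.6%, and 7 in RT112, beside 10.5%. The other way, 2 were higher in SW780 than in RT4, beside 15.6%, and 3 than in RT112, beside 13.5%.

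The widest DMSO ranges belonged to FADS3 (8.40-fold, RT112 lowest and SW780 highest), FADS1 (8.39-fold, the same order) and INSIG2 (6.57-fold, RT4 lowest and RT112 highest). These are single libraries, so neighbouring levels in these orders have no measured error. RT112 held the most SREBF1, SREBF2, INSIG1 and SCD with DMSO, with 2.83-fold, 2.58-fold, 3.78-fold and 2.94-fold ranges over the lines.

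**Figure D3:**
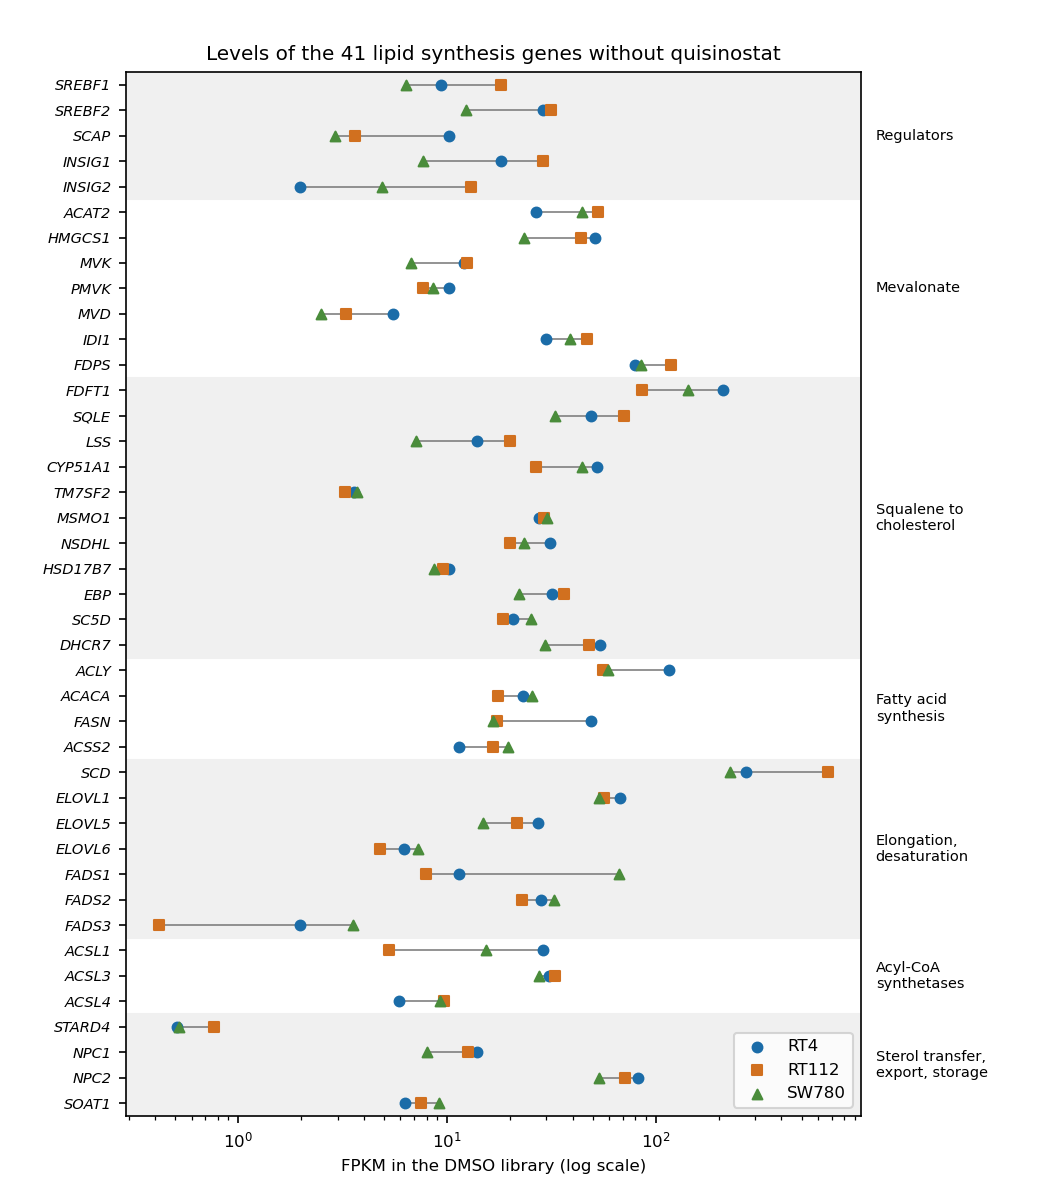
Each point is the FPKM of 1 member (rows, grouped by role) in the DMSO library of 1 cell line on a log horizontal axis, and the grey bar joins the lowest and the highest line. SCD lies farthest right in each line, at 226.5 to 665 FPKM, and FADS3, FADS1 and INSIG2 have the longest bars.

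Differences between lines over both treatments were tested in the same limma fit, with Benjamini-Hochberg adjustment over 9430 loci, and each pair of contrasts shares libraries. SCD was lower in RT4 than in RT112 by a log2 difference of -1.60 (standard error 0.25, adjusted p = 0.0324), and ACSL1 was higher in RT4 by 2.21 (standard error 0.29, adjusted p = 0.0212). These 2 of 41 members stand beside 4.85% of loci. INSIG1 was higher in RT112 than in SW780 by 2.06 (standard error 0.26, adjusted p = 0.0377) and SCD by 1.91 (standard error 0.25, adjusted p = 0.0445), 2 of 41 beside 1.13% of loci.

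Between RT4 and SW780 no member passed in limma, beside 5.1% of loci, with HMGCS1 the nearest at 1.04 (standard error 0.21, adjusted p = 0.0529, Benjamini-Hochberg) and 10 members at an unadjusted p under 0.05, beside 25.6% of loci. The FPKM of ACSL1, 28.9 and 28.0 in RT4, 5.30 and 5.43 in RT112, and 15.3 and 8.59 in SW780, kept the lines apart under both treatments. Without the SW780 libraries no member passed between RT4 and RT112, and without the RT4 libraries none passed between RT112 and SW780. On GC-corrected values more members passed, 9 between RT4 and RT112, 5 between RT4 and SW780 and 8 between RT112 and SW780, beside 15.6%, 12.7% and 7.03% of loci. Each line has 1 library per treatment and its own medium, so the test sets a line difference against what line and treatment leave over.

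The ratios of the members followed the GC content of their transcripts, with opposite signs in different lines. Spearman's rho of ratio against GC content was -0.63, 0.54 and -0.51 over the 41 members, beside -0.48, 0.44 and -0.22 over 8407 loci. These are descriptions over genes of the same libraries. The transcripts of MVD, FASN and SREBF1, at 65.6%, 65.3% and 64.7% GC, were the most GC-rich of the members, and STARD4, at 34.2%, and INSIG2, at 36.9%, were the poorest. The first 3 of these were lower in RT4 and SW780 and higher in RT112, and the last 2 were higher in RT4 and SW780. Whether the trend lies in the libraries or in the cells was not tested.

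**Figure D4:**
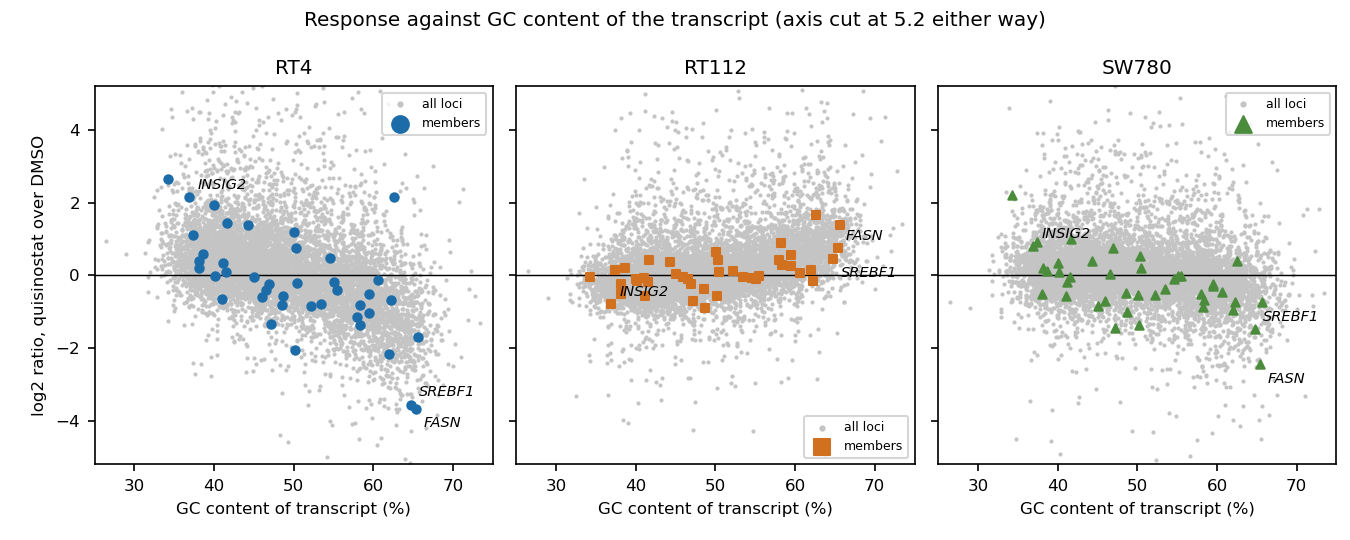
Log2 ratio of FPKM, quisinostat over DMSO (vertical axis, cut at 5.2 either way), against the GC content of the transcript in percent (horizontal axis), with all loci in grey and the 41 members in colour, 1 panel per line. The members run downward with GC content in RT4 and SW780 and upward in RT112, with rho of -0.63, -0.51 and 0.54.

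After the trend of all loci with GC content was subtracted in each line, rho over the 41 members was still -0.26, -0.16 and -0.33. Over 8407 loci it was then -0.01, 0.01 and -0.01, so the corrected ratios of the members kept some relation to GC content. SREBF1, SREBF2, LSS and FASN were no longer past 0.3 in RT112 and past it the other way in both other lines. The ratios of SREBF1 became -2.32, -0.48 and -1.11, those of FASN -2.37, -0.23 and -2.05, and those of SREBF2 -0.58, 0.02 and -0.36. Those of LSS, at -0.24, 0.47 and -0.72, kept their signs. Higher in RT112 and lower in both other lines were SREBF1, SREBF2, MVD, LSS and FASN before the correction, 5 members beside 7.35% of loci, and after it MVD alone, 1 beside 2.5%, with -0.38, 0.38 and -0.33. INSIG2 was the 1 member lower in RT112 and higher in both other lines, beside 3.35% of loci before the correction and 2.62% after it, with corrected ratios of 1.58, -0.62 and 0.62. FADS1 was the 1 member lower in SW780 and higher in both other lines, beside 1.57% of loci before and 1.42% after, and SCAP became the 1 member higher in RT4 and lower in both other lines, beside 1.4%.

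By line, the correction gave 21 members lower in RT4 (33.4% of loci), 12 in RT112 (24.7%) and 20 in SW780 (28.7%), and 12, 9 and 7 higher (35.7%, 28.1% and 30.5%). In both RT4 and SW780, 16 were lower (18%) and 6 higher (20.7%). Lower in all 3 lines after the correction were 7 members, beside 7.72% of loci: ACAT2, FDFT1, ACACA and SCD as before, and SREBF1, TM7SF2 and ACSL3. Their corrected ratios in RT112, the weakest line for most of them, were -0.58 for ACAT2, -0.34 for FDFT1, -0.89 for ACACA, -0.65 for SCD, -0.56 for TM7SF2 and -0.34 for ACSL3. Higher in all 3 lines were ELOVL5, FADS3, ACSL4 and NPC1, 4 beside 11.3% of loci, and NPC2 was just under the limit in SW780, at 0.29. The corrected medians of the members were -0.31, -0.03 and -0.22, beside 0.01, -0.01 and 0.00 for all loci. SCAP changed sign in RT4, from -0.67 to 0.32. Among other members that changed sign in RT4 were PMVK (-0.50 to 0.21), FADS2 (-0.13 to 0.70), MSMO1 (0.39 to -0.13) and ACSL3 (0.21 to -0.32). TM7SF2 changed sign in RT112, from 0.16 to -0.56. In limma on GC-corrected values, 0 of 41 members and 0 of 8646 loci passed an adjusted p of 0.05. The lowest adjusted p of a member in this limma fit was 0.126. At an unadjusted p under 0.05, 9 members were lower and 4 higher, beside 10.7% and 11.9% of loci.

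**Figure D5:**
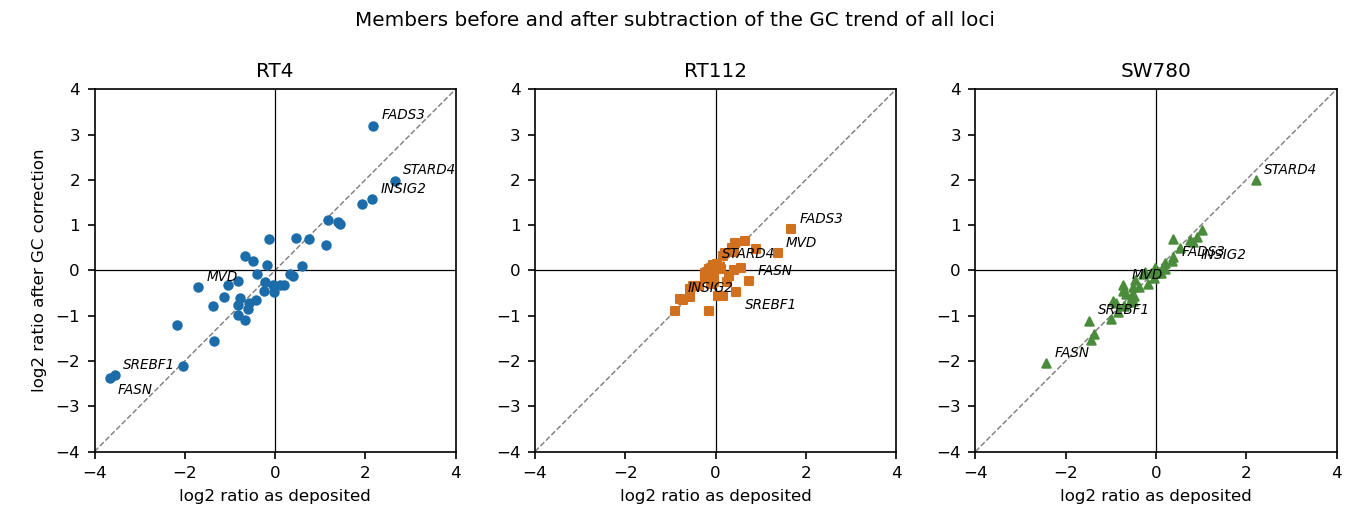
Log2 ratio of each member as deposited (horizontal axis) against the ratio after subtraction of the GC trend of all loci (vertical axis), 1 panel per line, with the dashed line where the values are equal. In RT112, SREBF1 moves from 0.46 to -0.48 and FASN from 0.75 to -0.23, while STARD4 and INSIG2 stay well above 0 in RT4 and SW780.

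Other regulators and enzymes of the sterol route were divided in direction in each line. Of 21 such genes with ratios, 6 were lower and 7 higher in RT4 (33.5% and 40.3% of loci). In RT112 there were 6 and 2 (25.2% and 36%), and in SW780 6 and 7 (28.2% and 32.8%). The medians were 0.12, -0.05 and -0.03. In all 3 lines 1 was lower and 1 higher, beside 4.99% and 11.4% of loci. NFYC, a subunit of the factor that binds CCAAT, was lower in all 3 lines, with ratios of -0.54, -0.71 and -0.48. The other listed subunits of that factor did not follow it, NFYA with -0.73, -0.48 and 0.52 and NFYB with 0.57, 0.03 and -0.25. ERG28, a scaffold of the demethylation enzymes, was higher in all 3 lines, with 0.45, 0.45 and 0.40. Of 9 genes of sterol uptake and traffic, 3 were lower and 5 higher in RT4, 2 and 4 in RT112, and 2 and 2 in SW780. None lay past 0.3 the same way in all 3 lines. These counts stand beside the same shares of loci.

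Of 17 other genes of fatty acid synthesis and handling with ratios, 5 were lower and 10 higher in RT4 (33.5% and 40.3% of loci). In RT112 there were 8 and 6 (25.2% and 36%), and in SW780 4 and 6 (28.2% and 32.8%). In all 3 lines 1 was lower and 3 were higher, beside 4.99% and 11.4% of loci. ACSL5, an acyl-CoA synthetase, was lower in all 3 lines by nearly the same ratio, at -1.11, -1.14 and -0.95, from 70.0, 70.2 and 62.5 FPKM with DMSO to 32.4, 31.9 and 32.4 with quisinostat. Higher in all 3 lines were SCD5 (1.153, 1.61 and 0.88), a desaturase paralog of SCD, ELOVL4 (9.28, 3.003 and 2.05), an elongase of very long chains, and ACSS1 (0.53, 1.34 and 1.14), the mitochondrial counterpart of ACSS2. SCD5 was thus higher where SCD was lower, although SCD5 reached only 12.3 FPKM in the RT4 quisinostat library against 107 for SCD. ELOVL4 started from 0.0132 FPKM in RT4, so its ratio there rests on a level near 0.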

How the data were processed

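Polyadenylated RNA was sequenced from 6 libraries, 1 for each of 3 cell lines and 2 treatments, as stranded libraries. Per the labels' processing notes, the authors named CASAVA 1.8.2, Trimmomatic 0.36, HISAT2 2.2.1, SAMtools 1.15.1, StringTie 2.2.1 and GRCh38, and per their methods expression was taken from Ballgown. The deposited values are FPKM, which include division by transcript length and library size; the annotation release is not given in the sources used here. The table holds no counts, so no counting interval was computed.

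One value per locus was used. Log2 ratios were plain (no pseudocount), over 9112 loci above 0 in all 6 libraries. limma 3.58.1 in R 4.3.3 was run on log2(FPKM + 1), which understates changes of low genes, with a trended prior, the cell line as a block and Benjamini-Hochberg adjusted p-values, and loci averaging under 1 FPKM were left out. Each DMSO library is paired with the quisinostat library of its own line. Both steps were tested on simulated data. GC content and gene positions came from GENCODE 29, with a value for 92.3% of loci, and a lowess curve (span 0.3) was subtracted in each line. Promoter windows came from RefSeq. Python 3.11.15 was used.

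The members and lists were chosen with earlier results of these data known. Values in every library are given for SREBF1, SREBF2, SCAP, INSIG1, INSIG2, HMGCS1, SQLE, FASN, SCD, for members past 0.3 in all 3 lines, and for the 3 with the widest spread of ratios and of DMSO levels. Of other lists, genes past 0.3 in all 3 lines are named, and NFYA and NFYB are given beside NFYC. Alternatives were other pseudocounts, filters, scalings and thresholds, the GC correction, single-name loci, no trend, no block, and leaving out a line.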

Additional observations from a re-analysis of the deposited data

Results flagged for a closer look

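In 6 members the ratio in RT112 lay past 0.3 in 1 direction while those in RT4 and SW780 lay past 0.3 in the other. Higher in RT112 were SREBF1 (log2 ratio 0.46), SREBF2 (0.42), MVD (1.38), LSS (0.89) and FASN (0.75), and lower there was INSIG2 (-0.79), beside 7.35% and 3.35% of loci. After the GC correction MVD and INSIG2 alone of these 6 still met this, and the ratios of SREBF1 and FASN in RT112 were -0.48 and -0.23. FADS1 was lower in SW780 (-0.54) and higher in RT4 and RT112. With 1 library for each line and treatment, the difference between lines was not tested for any of these genes. The lines also differ in dose and medium, which cannot be told apart from the line.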

How the results depend on the processing

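At a threshold of 1 in place of 0.3, 9 members were lower and 8 higher in RT4 (14.1% and 18% of loci), 0 and 2 in RT112 (3.6% and 13.8%), 5 and 2 in SW780 (7.35% and 10.5%), and 0 and 0 in all 3 lines (0.285% and 3%). At 0.5, 6 were higher in RT112 (27.1%) and 0 in all 3 lines (7.42%). The GC correction gave 12 lower in RT112 and 7 lower in all 3 lines. It turned the ratios of SREBF1 in RT112 to -0.48, of FASN in RT112 to -0.23 and of SCAP in RT4 to 0.32. Other members also changed sign with it, PMVK, FADS2, MSMO1 and ACSL3 in RT4 and TM7SF2 in RT112 among them. Leaving out a line gave 4 to 16 members lower and 4 to 8 higher in all remaining lines, the highest counts without RT112. Other pseudocounts, filters and scalings kept these counts within 1.5 times.

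In limma, 0 members passed for quisinostat under each alternative, including 0 with no replicate block and 0 with any line left out. Members that passed between RT4 and RT112 numbered 1 with no trend, 9 with the GC correction (15.6% of loci) and 0 without SW780. Between RT4 and SW780 they numbered 1 with a pseudocount of 0.1, 1 with no trend, 1 with quantile normalization, 5 with the GC correction (12.7%) and 2 without RT112. Between RT112 and SW780 they numbered 0 with no filter, 1 with no trend, 8 with the GC correction (7.03%) and 0 without RT4. The cause was not tested. Depth is unknown, so it sets no limit here that can be given.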

Other observations

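Genes of triglyceride storage and of fatty acid oxidation were also in the table. Of 13 genes of triglyceride and lipid droplet metabolism, 5 were lower and 5 higher in RT4 (33.5% and 40.3% of loci). In RT112 there were 1 and 7 (25.2% and 36%), and in SW780 3 and 5 (28.2% and 32.8%). The median log2 ratios were 0.04, 0.56 and 0.17. In all 3 lines 0 were lower and 2 higher, beside 4.99% and 11.4% of loci. Higher in all 3 lines were AGPAT1, an acyltransferase of phosphatidic acid synthesis (0.77, 0.56 and 1.05), and MGLL, the monoglyceride lipase (0.45, 3.33 and 3.40). MGLL measured 3.44 and 4.70 FPKM in RT4, 0.5998 and 6.03 in RT112, and 0.554 and 5.85 in SW780, so that the lines lay between 4.70 and 6.03 FPKM with quisinostat.

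Of 16 genes of fatty acid oxidation, 7 were lower and 6 higher in RT4 (33.5% and 40.3% of loci). In RT112 there were 4 and 6 (25.2% and 36%), and in SW780 6 and 5 (28.2% and 32.8%). The medians were 0.00, -0.02 and -0.16. In all 3 lines 0 were lower and 1 higher, beside 4.99% and 11.4% of loci. ECI2, an enoyl-CoA isomerase, was higher in all 3 lines (2.83, 0.76 and 0.94). In limma with Benjamini-Hochberg adjustment, no locus of the table passed for quisinostat, these genes included.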
